A study of Mus musculus with 6 samples.

Results

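The genes examined here carry thyroid hormone signalling inside brain tissue: the receptor genes Thra and Thrb, the deiodinase genes Dio2 and Dio3, and 3 genes known to respond to the hormone, Klf9, Hr and Nrgn. They were chosen by name, with earlier results of these data known. Each gene was read through its probe set of highest mean among those annotated to that gene alone, with its other probe sets as a check. Of these 7 genes, 6 had a probe set under that rule, out of 18193 genes on the array, and Dio3 was not analysed here. The 6 measured genes had 17 probe sets. A filter on low values left 4 of the 6 genes among 12966 genes tested, namely Thra, Dio2, Klf9 and Hr. Thrb and Nrgn lay below the filter and are given as values.

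Expression was measured on 6 Affymetrix whole-genome mouse arrays from male C57BL/6J mice, 1 array for each of 3 auditory brainstem nuclei at postnatal day 3 (P3) and at postnatal day 14 (P14). VCN stands for the ventral cochlear nucleus, which receives the auditory nerve. LSO is the lateral superior olive and MNTB the medial nucleus of the trapezoid body, both of which compare or relay signals from the ears. The labels name no transgene or treatment, and every array held a pool, of 6 mice at P3 and of 3 mice at P14. Since each nucleus was measured once per age, the error of an age difference comes from its variation over the 3 nuclei, and the p-values do not measure variation between animals. Values are log2 expression values, on which 1 unit is a doubling.

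Thyroid hormone reaches the brain mainly as the prohormone T4, which crosses the barrier through transporters of the Slco and Slc16 families. Deiodinase type II, made by Dio2 and in brain mostly by astrocytes and tanycytes, turns T4 into the active hormone T3, whereas deiodinase type III, made by Dio3 and in brain mostly by neurons, inactivates T3. T3 binds nuclear receptors that sit on DNA with retinoid X receptors, and it switches them from repression to activation of genes such as Klf9 and Hr. In rodents the hormone is needed before and around the onset of hearing, in the cochlea as well as in the central auditory pathway.

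The start regions of these genes are shown because Dio2 and Klf9 both rose with age and because Thrb is itself a nuclear receptor gene of the pathway. RefSeq windows of 300 bases (build GRCm38.p6), from 250 bases before to 50 after the gene's start, were at hand for 5 of the 7 genes, with 2 for Thrb. Thra and Hr had no window. They were searched on both strands for the receptor core site AGGTCA, its direct repeat with a spacing of 4 bases, the GC box GGGCGG and the box CACCC, the last pair being letters that Klf proteins can bind. The cAMP response element TGACGTCA was added after the sequences were seen. Capitals mark every match. The 3 windows below are written 5′ to 3′ on the strand of the gene.
Dio2 (chr12:90738989-90739288, minus strand): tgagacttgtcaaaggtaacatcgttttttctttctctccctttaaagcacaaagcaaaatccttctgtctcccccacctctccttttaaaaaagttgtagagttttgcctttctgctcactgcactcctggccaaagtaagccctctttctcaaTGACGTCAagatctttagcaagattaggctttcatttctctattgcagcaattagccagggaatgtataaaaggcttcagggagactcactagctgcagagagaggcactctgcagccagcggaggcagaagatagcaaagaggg
Klf9 (chr19:23140976-23141275, plus strand): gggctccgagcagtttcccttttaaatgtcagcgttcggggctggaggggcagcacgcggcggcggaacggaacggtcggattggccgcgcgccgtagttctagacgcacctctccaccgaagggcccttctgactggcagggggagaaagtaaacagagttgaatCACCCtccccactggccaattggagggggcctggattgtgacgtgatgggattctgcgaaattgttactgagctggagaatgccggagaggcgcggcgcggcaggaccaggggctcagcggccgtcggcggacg
Thrb (chr14:17660710-17661009, plus strand): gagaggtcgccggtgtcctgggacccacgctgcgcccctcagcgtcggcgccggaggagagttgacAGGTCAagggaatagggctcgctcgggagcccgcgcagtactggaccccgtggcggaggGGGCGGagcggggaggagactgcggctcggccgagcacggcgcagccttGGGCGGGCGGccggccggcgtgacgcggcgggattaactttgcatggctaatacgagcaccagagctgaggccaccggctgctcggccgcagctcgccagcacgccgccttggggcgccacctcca

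The Dio2 window held none of the 4 motifs and 1 cAMP element, 95 bases before the start, a motif found in 1.79% of 32851 RefSeq windows. The Klf9 window held 1 CACCC box, as 57.5% of windows do with at least one, and no core site. The upstream Thrb window held 1 receptor core site, found in 16.3% of windows, and 3 GC boxes, of which 2 overlap, a motif found in 35.7%. The second Thrb window held none of the motifs. Of the genes whose windows are not printed, Dio3 held 4 GC boxes and 2 CACCC boxes, and Nrgn held 1 GC box and 3 CACCC boxes. The direct repeat was in none of the members' windows and in 0.0152% of all windows. A match is a run of letters and not a bound site, and these windows do not reach distant enhancers.

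The arrays themselves gave the following. Array medians were 6.27 to 6.31. The difference between 3' and 5' control sets of Gapdh, which follows RNA and amplification quality, was 1.21 to 1.41 at P3 and 1.06 to 1.11 at P14, and pool size also changed with age, so these cannot be told apart from age. One array stood apart in Ttr, which encodes transthyretin and marks choroid plexus: VCN at P14 read 12.58, the other 5 arrays 6.61 to 6.93. Leaving out that array also takes VCN out of the age estimate, since the model pairs the ages by nucleus. Dio2 then rose by 3.97, Klf9 by 1.16 and Hr by 1.86, all still past the test. Some genes of auditory brainstem neurons are given as examples. Slc6a5, the glycine transporter gene, was highest in MNTB at both ages (12.50 and 13.02) but at 10.74 or more on all arrays. Pvalb, the parvalbumin gene, was at 8.31 or more on all arrays, so the presence of either gene does not tell the nuclei apart. Esrrb was highest in MNTB at both ages (8.20 and 8.54), with 7.93 in VCN at P14. The 6 genes of cerebellar granule and Purkinje cells had a summed level (log2 of the sum of linear values) of 13.11 and 12.54 on the VCN arrays of P3 and P14 against 9.61 to 10.41 on the others. Zic1 (12.45 and 11.84 in VCN, 6.14 to 8.69 elsewhere), Neurod1 and Pax6 were highest in VCN at both ages, while Pcp2 was lowest there at P14 (7.45). Gabra6 and Cbln3 were highest on the VCN array of P14, at 7.97 and 8.54, against 3.61 and 5.27 in VCN at P3. The arrays of the other nuclei read 3.26 to 4.37 for Gabra6 and 4.17 to 6.53 for Cbln3. The 6 choroid plexus genes did not move together at P3: Otx2 was at 9.34 in VCN, where Ttr was at 6.93, Kl at 4.62 and Aqp1 at 4.11. Among the P14 arrays, VCN was highest for Otx2 (6.52, LSO 3.34, MNTB 3.18) and Folr1 (6.26, 4.77, 5.39) as for Ttr. It was also highest there for Kcnj13 (5.39, 4.43, 4.66) and, narrowly, Kl (4.98, 4.83, 4.83), but not for Aqp1 (4.66, 4.96, 4.26).

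The largest change among these genes was in Dio2, the gene of the activating enzyme. At P3 its value was 7.50 in VCN, 8.17 in LSO and 6.97 for MNTB (probe set 1418937_at). At P14 the values were 11.90 for VCN, 11.63 for LSO and 11.46 for MNTB. Every P14 array lay far above every P3 array. In this probe set the nuclei had a range of 0.44 log2 units at P14 and of 1.20 at P3. Probe set 1426081_a_at showed no clear narrowing, at 4.12 to 4.74 at P3 and 7.62 to 8.23 at P14. Probe set 1418938_at lay at 3.39 to 4.30 and 7.67 to 8.28. Dio2 rose by 4.11 ± 0.21 log2 units, or 17.3-fold (limma, adjusted p = 0.000382). Errors after ± are limma's moderated standard errors, which borrow from other genes, and the SD of the 3 Dio2 rises themselves was 0.57. By nucleus, VCN gained 4.40, LSO 3.46 and MNTB 4.48. Among 12966 tested genes, it was the rise with rank 14. In tissue pools of this kind, more cells of a type and more RNA per cell cannot be told apart.

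The other Dio2 probe sets gave rises of the same order. One rose by 3.60 ± 0.19 (adjusted p = 0.000236), from 4.12, 4.74 and 4.22 in VCN, LSO and MNTB at P3 to 8.23, 8.01 and 7.62 at P14. Of its P3 values 2 lay within the range of the unspiked control sets, and with values floored the rise was 3.39. The other stood at 3.39, 4.30 and 4.15 at P3, all within the range of unspiked bacterial control sets (2.84 to 4.42), so its rise is a lower bound of at least 3.47 log2 units with low values raised to a floor of 4.47. At P14 it reached 8.28, 7.86 and 7.67 (VCN, LSO, MNTB), so that all 3 Dio2 probe sets separated the ages in each nucleus.

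**Figure D1:**
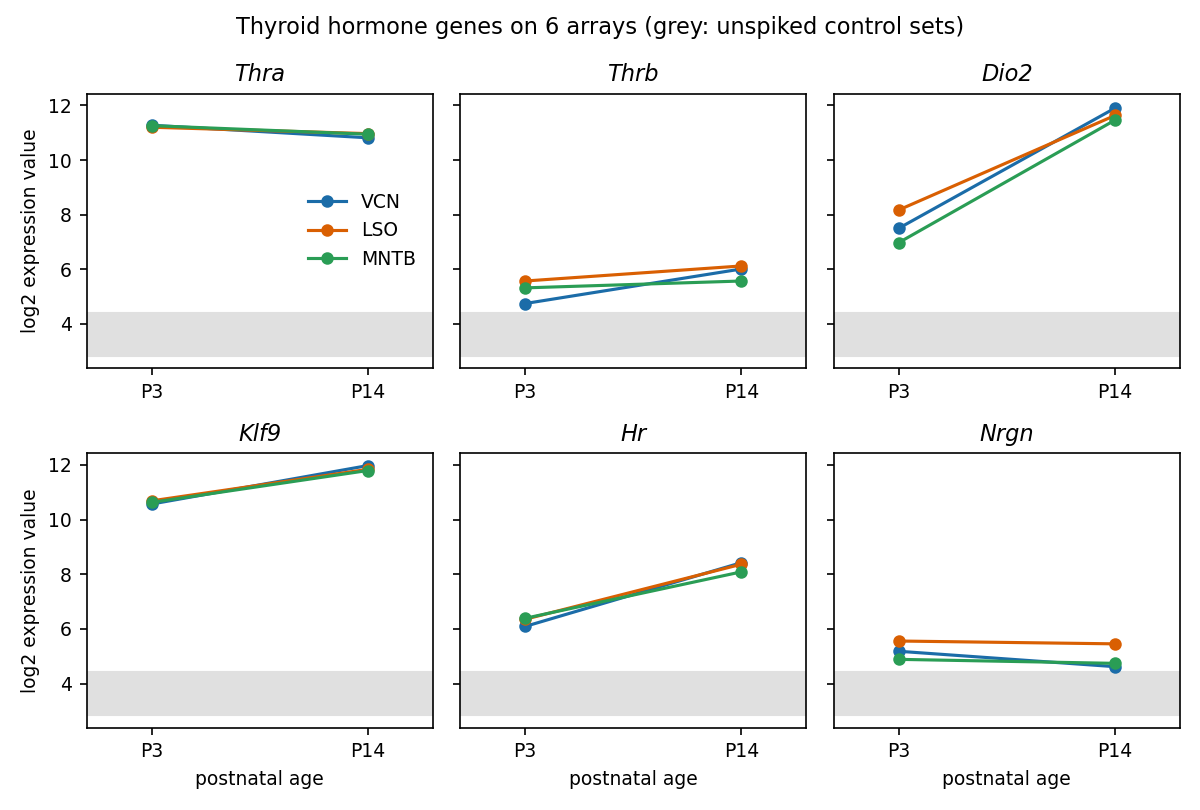
Log2 expression value (y axis) of the 6 measured thyroid hormone genes at P3 and P14 (x axis), 1 point per array, with a line joining the 2 ages of each nucleus; the grey band is the range of the unspiked control sets, 2.84 to 4.42. Dio2 climbs from 6.97 to 8.17 at P3 to 11.46 to 11.90 at P14, Klf9 and Hr rise in all 3 nuclei, and Nrgn stays between 4.62 and 5.56.

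Of the hormone's known target genes, Klf9 and Hr both rose. Klf9 encodes a zinc finger transcription factor that T3 induces directly in neurons and in oligodendrocyte precursors. At P3 the VCN, LSO and MNTB arrays read 10.57, 10.69 and 10.63, and at P14 they read 11.98, 11.84 and 11.80 (probe set 1456341_a_at). The nuclei were almost level at each age, within 0.12 log2 units at P3 and 0.18 at P14. The increase was 1.24 ± 0.08 log2 units, or 2.37-fold (limma, adjusted p = 0.000454), with steps of 1.41 for VCN, 1.15 for LSO and 1.17 for MNTB.

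The size of the Klf9 rise differed between probe sets. Of 7 Klf9 probe sets, 5 were tested and 4 passed, with rises of 1.24, 1.83, 1.92 and 2.29. The set with the highest values, which represents the gene, gave the smallest of these. The tested set that did not pass differed by 0.13 (adjusted p = 0.437) and lay between 5.50 and 5.72 on all 6 arrays. The untested sets had differences of 2.60, or 2.07 with values floored, and of 0.27, the last with values of 3.84 to 4.45, close to the control sets.

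Hr encodes hairless, a corepressor of nuclear receptors that is itself among the most T3-sensitive transcripts known in rodent brain. At P3 it stood at 6.09, 6.35 and 6.39 in VCN, LSO and MNTB, and at P14 at 8.42, 8.37 and 8.09 (probe set 1435950_at). The 3 P14 arrays were again all above the 3 P3 arrays. The rise of 2.02 ± 0.15 log2 units, or 4.04-fold, had adjusted p = 0.000617 in limma and ran from 2.33 for VCN through 2.01 for LSO to 1.70 for MNTB. The second Hr probe set rose by 0.90 ± 0.19 (adjusted p = 0.0118), from 6.29, 6.71 and 6.58 to 7.71, 7.25 and 7.33. Both sets separated the ages, with the wider step in VCN in each case.

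Nrgn encodes neurogranin, a calmodulin-binding protein of dendritic spines whose forebrain expression in rodents depends in part on thyroid hormone. It was little above background at both ages. Its single probe set read 5.18, 5.56 and 4.89 at P3 (VCN, LSO, MNTB) and 4.62, 5.45 and 4.74 at P14. The highest control value was 4.42, and the Nrgn mean of 5.07 lay below the filter at 5.56. The age groups overlapped, and the difference of -0.27 was negative in 3 of 3 nuclei. In a fit without the filter it had adjusted p = 0.210, with an unadjusted 95% interval of -0.62 to 0.07 log2 units.

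The receptor genes showed smaller differences than Dio2. Thra, which encodes the hormone-binding receptor TRα1 and, by alternative splicing, the TRα2 form that does not bind T3, had high values at both ages. Its representing probe set read 11.27, 11.20 and 11.26 at P3 (VCN, LSO, MNTB) against 10.81, 10.97 and 10.94 at P14. It fell by 0.34 ± 0.08 on the log2 scale, a 1.26-fold difference (limma, adjusted p = 0.0174), with no overlap between the ages. The call was lost when either MNTB array was removed (limma, adjusted p = 0.0921 for P3 and 0.0883 for P14). The other Thra probe sets differed by -0.04 (adjusted p = 0.798) and -0.03 (adjusted p = 0.857), and both were higher at P14 in LSO, by 0.25 and 0.15, and lower in VCN and MNTB. The median of the 3 sets differed by -0.04 (adjusted p = 0.794), so the fall rests on 1 of the 3 Thra probe sets. The sources used here do not say which receptor form each set reads.

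Thrb encodes the TRβ receptors, of which one form is required for hearing in mice. Its single probe set stood at 4.75, 5.57 and 5.32 at P3 (VCN, LSO, MNTB) and at 6.01, 6.12 and 5.57 at P14. The LSO array of P3 and the MNTB array of P14 had the same value to 2 decimals, so the ages were not separated. Its mean of 5.558 lay just under the filter at 5.562. The difference was 0.69 log2 units and positive in 3 of 3 nuclei, at 1.26 for VCN, 0.55 for LSO and 0.25 for MNTB. In the fit without the filter, where 28.6% of 18193 genes passed, its adjusted p was 0.0618, with an unadjusted 95% interval of 0.16 to 1.22.

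Over the 4 tested members, 3 were higher and 1 was lower at P14 in limma. By the same test 41.0% of all tested genes passed, 23.3% higher and 17.6% lower. The median difference was 1.63 over the 4 members and 0.03 over all tested genes. Klf9, Hr and Dio2 had every P14 array above every P3 array, as did 30.3% of tested genes, and the reverse separation seen for Thra was found in 23.3%. Of the members' 11 other probe sets, 9 were tested and 6 passed, all higher at P14. Those of Dio2 reached the test only through their P14 values, so their count is no separate evidence of a rise. Over all tested probe sets 41.2% passed and 21.7% were higher at P14.

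**Figure D2:**
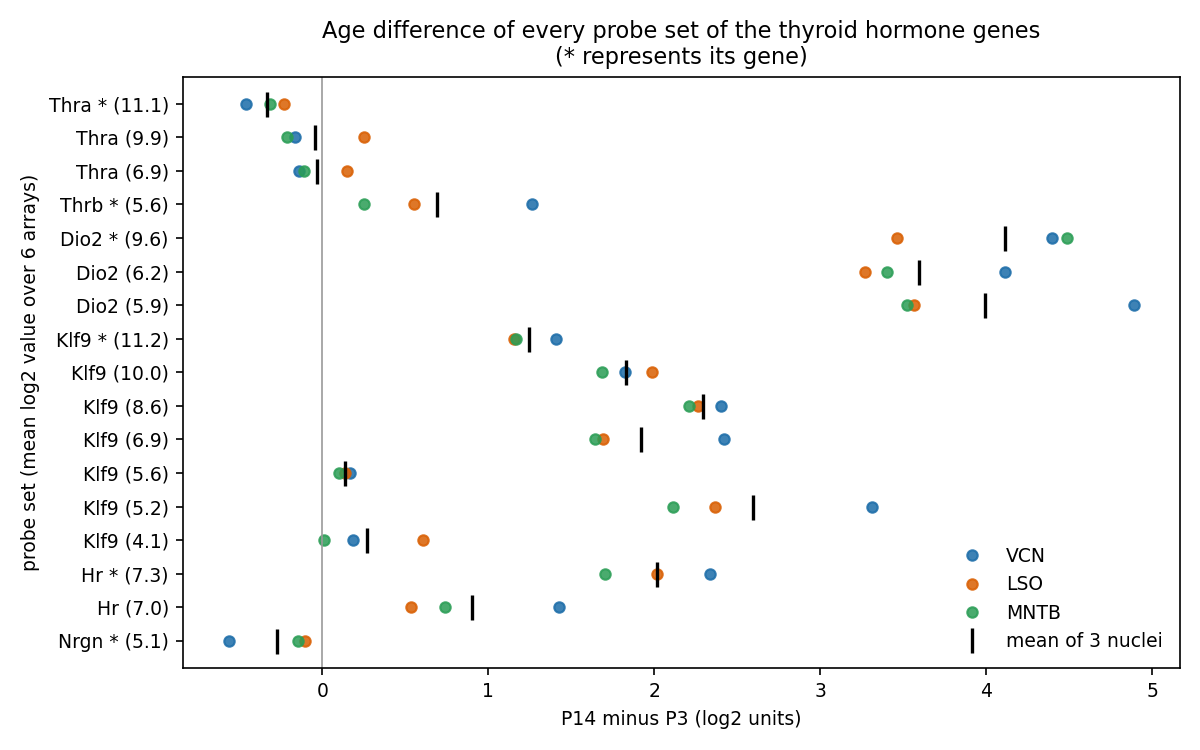
P14 minus P3 in log2 units (x axis) for each of the 17 probe sets of the 6 genes (y axis, with the mean log2 value in brackets and an asterisk for the set that represents the gene); points are nuclei and the black tick is their mean. All 3 Dio2 sets lie between 3.27 and 4.89 in every nucleus, 2 of the 7 Klf9 sets lie near 0, and 2 of the 3 Thra sets straddle 0.

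Cell type markers moved with age beside these genes. For the counts below, 23.3% of all tested genes were higher and 17.6% lower at P14 by the same test. Of 10 astrocyte genes, 6 rose and 2 fell with a median of 0.55. Gjb6, a connexin gene of mature astrocytes, rose by 3.49 and Ntsr2 by 2.55, while Aldh1l1 and the glutamate transporter gene Slc1a3 fell by 0.83 and 0.81. Their summed level (log2 of the sum of linear values) was 14.70 to 14.89 at P3 and 15.18 to 15.38 at P14. All 8 myelin genes rose, with a median of 3.09 and summed levels of 13.06 to 14.34 and 15.73 to 15.85. Of 3 tested meningeal genes, 3 rose (median 2.88, summed levels 7.14 to 7.37 and 9.74 to 10.15). Of 3 tested ependymal and tanycyte genes, 1 rose (summed levels 8.49 to 10.02 and 9.16 to 10.10), and Rax, the defining tanycyte gene, was below the filter at 4.56 to 4.85. Of 5 endothelial genes 4 rose (summed levels 10.32 to 10.66 and 11.24 to 11.38). Of 6 microglial genes 4 rose (11.06 to 11.58 and 11.74 to 12.03). With 1 array left out, 2 to 4 of the endothelial and 2 to 5 of the microglial genes rose. Of 6 general neuronal genes 4 fell and 1 rose (14.87 to 15.09 and 14.67 to 14.95). Of 9 tested genes of auditory brainstem neurons 5 rose and 0 fell (median 1.21, summed levels 12.73 to 13.25 and 14.01 to 14.43), among them Pvalb and the potassium channel gene Kcna1. In these lists Gjb6, Mog, Ermn, Col3a1, Dcn and the endothelial Slco1a4 had P3 means below the filter. They reached the test through their P14 values, so their part in the counts is no separate evidence of a rise. The part of these cell types in the rises of Dio2, Klf9 and Hr was not tested.

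Between nuclei, none of the tested members differed by the adjusted test. For Thra, Dio2, Klf9 and Hr, 12 differences were computed with limma, and 0 passed after adjustment and 1 at an unadjusted p under 0.05. Few genes passed at all, 0.162% for MNTB minus LSO, 0.602% for MNTB minus VCN and 0.370% for VCN minus LSO. The single unadjusted case was Dio2, lower in MNTB than in LSO by 0.68 log2 units (adjusted p = 0.685 in limma), a difference of -1.20 at P3 and -0.17 at P14. In its representing probe set, the order of Dio2 from low to high was MNTB, VCN, LSO at P3 and MNTB, LSO, VCN at P14. In its other probe sets VCN was lowest at P3 (4.12 and 3.39). Intervals were narrow for Klf9, at -0.30 to 0.25 log2 units over its 3 contrasts, and for Thra, at -0.27 to 0.29. They were wider for Hr, at -0.59 to 0.45, and for Dio2, at -1.31 to 0.43.

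Nrgn and Thrb, below the filter, are given from the fit without it. Nrgn was highest in LSO at both ages. It was lower in MNTB than in LSO by 0.67 log2 units at P3 and 0.71 at P14 (limma, adjusted p = 0.485), and lower in VCN than in LSO by 0.37 and 0.84 (adjusted p = 0.378). Thrb was also highest in LSO at both ages, by 0.25 over MNTB and 0.82 over VCN at P3 and by 0.55 and 0.11 at P14 (adjusted p = 0.860 and 0.754). Neither gene passed for any of its contrasts.

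**Figure D3:**
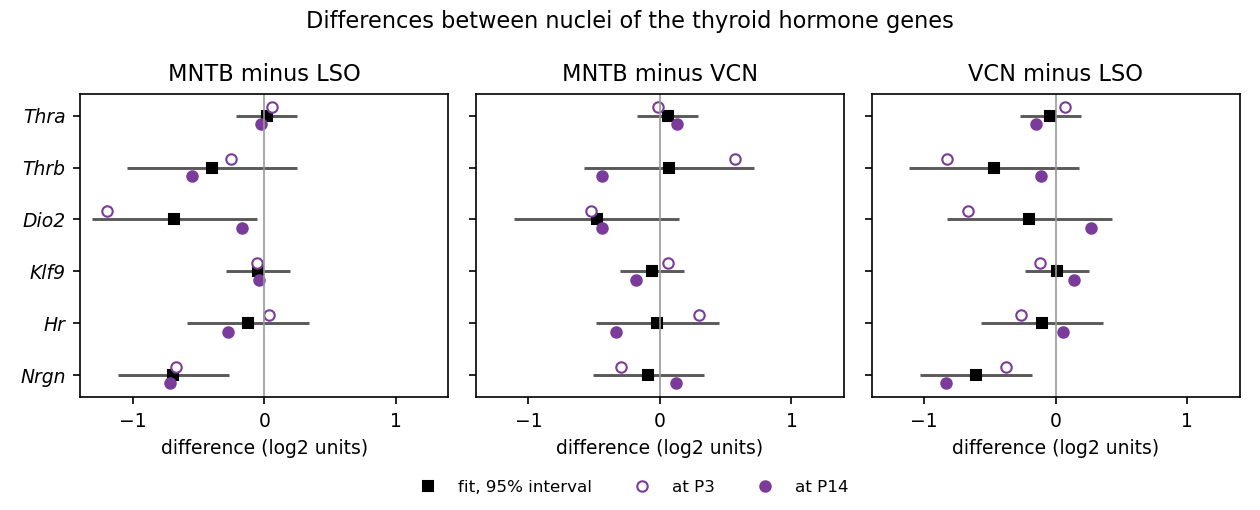
Differences between nuclei in log2 units (x axis) for the 6 measured genes (y axis), with open points for P3, filled points for P14, and squares with 95% intervals for the limma fit over both ages; Thrb and Nrgn are from the fit without a filter on low values. Klf9 and Thra stay within 0.19 of 0 at either age, and Nrgn lies at -0.67 and -0.71 for MNTB minus LSO.

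The other genes of the pathway, listed by role, are described by their counts, with 41.0% of all tested genes past the test. Among genes of hormone transport and binding, 8 of 9 were measured and 7 tested, and 3 rose and none fell (median 0.56). Slco1a4, an organic anion transporter gene of the blood-brain barrier, rose by 3.13 ± 0.27 (adjusted p = 0.000803), from 4.46, 4.77 and 5.50 to 8.15, 8.15 and 7.81 in VCN, LSO and MNTB. Slco1c1, the gene of the T4 transporter OATP1C1 of capillaries and astrocytes, rose by 0.88 ± 0.13 (adjusted p = 0.00417). Slc3a2, the heavy chain gene of the amino acid transporters that also carry thyroid hormone, rose by 0.35 (adjusted p = 0.0428), and this call was lost whichever of the 6 arrays was removed (adjusted p up to 0.180). Crym, which encodes a cytosolic T3-binding protein, differed by -0.20 (adjusted p = 0.518), from -0.79 in VCN to 0.34 in MNTB. Both Slco genes separated the ages in all nuclei.

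Of 16 tested receptor partners and coregulators, 1 rose and 3 fell, with a median of -0.15. The falls were in Nr2f1 and Nr2f2, genes of the COUP-TF orphan receptors that can compete for the same DNA sites, by 1.19 ± 0.09 and 0.98 ± 0.13 (adjusted p = 0.000610 and 0.00275), and in Rxrg, a retinoid X receptor gene, by 0.74 (adjusted p = 0.0420). Nr2f1 went from 11.69, 11.52 and 11.43 in VCN, LSO and MNTB at P3 to 10.50, 10.51 and 10.06 at P14. With 1 array removed at a time, Rxrg passed only in the 2 cases that lacked a VCN array (adjusted p up to 0.185). The rise was in Nr1d1, the gene of REV-ERBα, whose locus overlaps the end of Thra on the other strand. Its value was 0.37 (adjusted p = 0.0449), and it passed in 0 of those 6 cases and not after repeated quantile normalization (adjusted p = 0.0924). Dio1, the gene of the deiodinase of liver and kidney, was at 2.22 to 2.42 on all arrays, below the range of the control sets.

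Other genes known to respond to thyroid hormone in rodent brain mostly rose. Of 19 tested, 13 rose and 1 fell, with a median of 1.36 against 0.03 over all tested genes, and 10 to 14 rose with 1 array left out. By the same test 23.3% of all tested genes were higher and 17.6% lower at P14. The list was made with earlier results of these data known, so its count is a description and no independent test. Pcp2, among the genes that rose, gained 0.89. It differed by only 0.005 when its probe sets were summarised by their median (limma, adjusted p = 0.977). The largest rises were in Mog and Mag, which encode myelin membrane proteins, by 5.68 ± 0.49 and 3.06 ± 0.39 (adjusted p = 0.000813 and 0.00252), and in Aldh1a1, a retinaldehyde dehydrogenase gene, by 3.76 ± 0.15 (adjusted p = 0.000249). Aldh1a1 stood at 6.82, 7.39 and 7.43 in VCN, LSO and MNTB at P3 and at 10.98, 10.98 and 10.97 at P14. The list shares Mbp, Mag, Mog and Cnp with the myelin markers above, which rose in every case. Mog and Rasd2 had P3 means below the filter (5.29 and 5.36) and were tested through their P14 values. The fall was in Camk4, a calmodulin-dependent kinase gene that T3 induces in fetal rodent neurons, by 1.23 ± 0.09 (adjusted p = 0.000617), from 11.56, 11.33 and 11.07 to 10.54, 10.03 and 9.70. Reln, which encodes the extracellular matrix protein reelin, differed by -0.62 (adjusted p = 0.0983), and it was singled out after its values were seen.

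**Figure D4:**
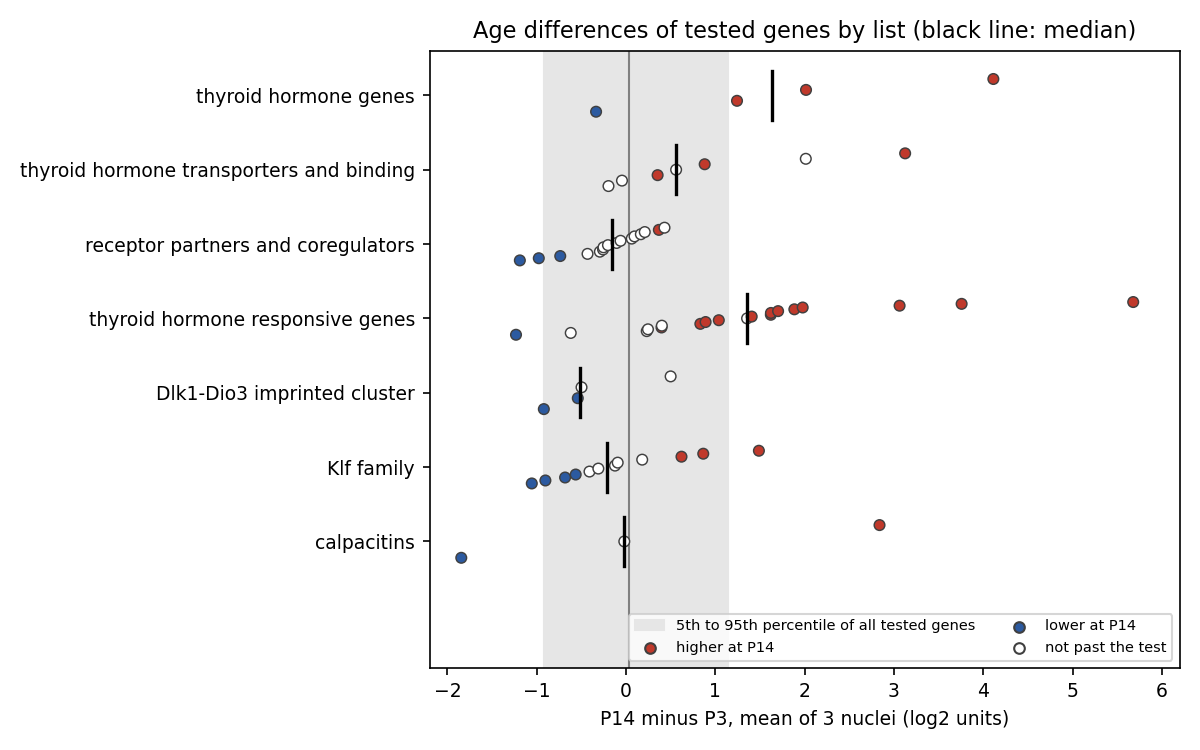
P14 minus P3, mean of 3 nuclei in log2 units (x axis), for the tested genes of each list (y axis), coloured by the limma call; the black line is the list's median and the grey band the 5th to 95th percentile of all tested genes, -0.91 to 1.14. Dio2 at 4.11, Hr at 2.02 and Klf9 at 1.24 lie beyond the band, as do most genes called higher among the hormone-responsive genes.

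Relatives of the members went their own ways. Of 12 tested Klf family genes other than Klf9, 3 rose and 4 fell (median -0.22), where 23.3% of all tested genes rose and 17.6% fell. Klf13, a close relative of Klf9, rose by 1.49 ± 0.14 (adjusted p = 0.00103), Klf4 by 0.86 and Klf2 by 0.62, whereas Klf11, Klf10 and Klf7 fell by 1.05, 0.90 and 0.68. The fourth fall, in Klf12, passed in 2 of the 6 cases with an array removed. Klf13 was at 7.80, 8.01 and 7.60 at P3 and at 9.39, 9.16 and 9.33 at P14, higher in every nucleus. Klf2 did not pass without either MNTB array (highest adjusted p = 0.0528). Neurogranin belongs with GAP-43 to the calmodulin-binding calpacitins. Gap43, a gene of growing axons, fell by 1.84 ± 0.36 (adjusted p = 0.0104), with -3.02 in VCN, -0.94 in LSO and -1.58 in MNTB. Pcp4l1 rose by 2.84 ± 0.18 (adjusted p = 0.000445), and Pcp4 differed by -0.02 (adjusted p = 0.816).

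Dio3 lies at the end of an imprinted gene cluster, of which 4 listed genes were measured. Meg3 and Rian, maternally expressed noncoding RNAs of that cluster, fell by 0.92 ± 0.08 and 0.54 ± 0.07 (adjusted p = 0.000899 and 0.00220). Meg3 stood at 12.71, 12.54 and 12.73 in VCN, LSO and MNTB at P3 and at 11.73, 11.83 and 11.66 at P14. Dlk1 gave -1.29 in VCN, 1.09 in LSO and 1.70 in MNTB and did not pass (adjusted p = 0.494), but it was called higher when either VCN array was left out. The antisense transcript Dio3os, chosen after its values were seen, was at 4.43 to 4.77 on all arrays, below the filter.

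For each member the 2 tested genes with the nearest pattern were found by the root mean square (RMS) difference between mean-centred values on 6 arrays, which is a description of 6 points that share their arrays. Nearest to Klf9 were Hagh, a glyoxalase gene (RMS 0.06, Pearson r 0.997), and Arsb, a lysosomal sulfatase gene (0.07, r 0.995). Nearest to Hr were Rnf128 (0.11, r 0.994) and Lgi3 (0.12, r 0.993). For Dio2 the nearest genes were Gpr62 and Gjb1, both known from oligodendrocytes, but at a wider distance (0.41, r 0.983 and 0.43, r 0.981). For Thrb they were Ncf1 and Dnaic1 (0.08 and 0.09), for Nrgn Slc29a4 and Flot1 (0.08 and 0.10), and for Thra Lce3c and Tas1r3 (0.02 each), in the narrow range of 0.46 log2 units that Thra covered.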

How the data were processed

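RNA pooled per nucleus and age was amplified and hybridised to Affymetrix mouse arrays, per the labels' protocols. The authors deposited 1 log2 value per probe set and array, made with RMA per the submitters' processing notes. The RMA version and scan batches, and whether one set of mice supplied all nuclei at an age, were not found in these sources. Of 45101 probe sets, 34945 named 1 gene in the platform annotation, 932 several and 9160 none here, and 64 were controls. A gene was read from its probe set of highest mean, passing over cross-hybridising sets (suffix _x_at) if it had others, and tested at a mean at or above the 40th percentile of probe sets (5.56). That mean covers both ages, so genes low at P3, such as Slco1a4, Gjb6, Mog, Ermn, Col3a1, Dcn and Rasd2, were tested through their P14 values. Values were fitted with limma 3.58.1 (R 4.3.3), adding terms for age and nucleus, with an intensity trend, 2 residual and 3.94 prior degrees of freedom, and two-sided tests with Benjamini-Hochberg adjustment over all genes tested at a threshold of 0.05. The probe sets of each member were fitted among 27022 tested probe sets. An age by nucleus interaction could not be fitted, with 1 array per combination. Arrays carry no counting error, and their number limits the precision. The fit was tested on simulated data for bias, sign and false calls. There a small share of genes changed with age, equally in all nuclei, so the many changes seen here were not covered. Genes of each list past the test were named, in lists of over 8 measured genes the 3 largest rises and falls. Alternatives were other filters, scalings, probe set choices, variance priors, a floor, no nucleus term and leaving out each array. An array left out also took its nucleus out of the age estimate, which then rested on the other nuclei. The members, lists and tests were chosen with earlier results of these data known. No protein sequence was used here.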

Additional observations from a re-analysis of the deposited data

Results flagged for a closer look

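Differences between nuclei that turned sign between the ages, by at least 0.25 log2 units on both sides, were found for 3 of the 6 measured genes, each time with VCN the lower of the pair at P3 and the higher at P14. By the same rule 10.7% of 18193 genes turned, which is given as a description with no test. Thrb in VCN minus MNTB was -0.57 at P3 and 0.44 at P14. Dio2 in VCN minus LSO was -0.67 at P3 and 0.27 at P14. Hr in VCN minus MNTB was -0.30 at P3 and 0.34 at P14. Each value compares 2 arrays, and the change between ages was not tested. The VCN arrays also had the highest summed level of the cerebellar genes at both ages (13.11 and 12.54, others 9.61 to 10.41), and the VCN array of P14 the highest Ttr, and their part in these values was not tested.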

How the results depend on the processing

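The probe sets that represent Dio2, Klf9 and Hr passed under each filter, scaling, variance prior, floor and left-out array run. With each array left out Dio2 ranged from 3.93 to 4.44, Klf9 from 1.16 to 1.29 and Hr from 1.86 to 2.17, with adjusted p up to 0.00618 in limma. Of their other tested probe sets, 1 for Klf9 did not pass (0.13, adjusted p = 0.437), and 1 for Hr gave adjusted p = 0.0118. Taking the median over probe sets gave 3.63, 1.92 and 1.46. The fall of Thra did not pass with that median or without either MNTB array. Of the members' probe sets that do not represent their gene, 6 passed, and 7 without the filter. Counts over all genes moved more. For age 5313 genes passed, and 3146 (without MNTB at P3) to 4715 (without VCN at P14) when arrays were left out. For MNTB minus LSO 21 passed, with 4 to 99 when arrays were left out. For MNTB minus VCN it was 78, with 17 to 217, and for VCN minus LSO 48, with 4 to 159. At the 60th percentile filter the last pair became 51 and 29, with fewer genes tested. Genes called higher and lower with age numbered 3026 and 2287, and 2680 and 2597 after repeated quantile normalization. The model pairs the ages by nucleus, so leaving out either array of a nucleus gave the same age difference. Dio2, for example, rose by 3.97 without either VCN array. The labels give no replicate numbers. Without nucleus in the model (no replicate block) 5074 genes passed for age, all 4 tested members among them. Other causes of these shifts were not tested. Low signal limits Thrb and Nrgn.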

Other observations

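Several hormone-responsive genes outside the rule for naming, chosen after their values were seen, rose in each of the 3 nuclei. Kcnj10, the inward rectifier gene of astrocytes, rose by 1.89 ± 0.10 (limma, adjusted p = 0.000382), with 2.09 in VCN, 1.90 in LSO and 1.67 in MNTB. Dbp, a clock output transcription factor gene, rose by 1.62 ± 0.11 (adjusted p = 0.000459). Thrsp, known as a T3-induced gene of lipid synthesis in liver, rose by 1.98 ± 0.15 (adjusted p = 0.000640), from 1.58 in VCN to 2.29 in LSO, but by 0.85 when its probe sets were summarised by their median. Calb1, which encodes calbindin, gave 1.55 in VCN, -0.09 in LSO and 2.60 in MNTB and did not pass (adjusted p = 0.0618).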
